A study of Homo sapiens with 11 samples.

Results

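ADCY1, GOLGA4, KIAA1671, ADGRV1, MYO9A and ITPR3 are 6 long genes that had many enriched windows with 2 substituted forms of the ribosomal protein RPS19 and none with the wild-type protein. They were chosen by their window counts in the 3 lists, so these counts describe the selection and carry no test. Together they held 247 of 86567 windows listed with the substitution R62W, 334 of 93331 listed with R101H and 0 of 15402 listed with the wild-type protein (WT), or 397 distinct windows. The 6 genes are among 8697 named in any list.

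RPS19 is a protein of the small ribosomal subunit that is needed to process the precursor of 18S rRNA, and mutations in it cause Diamond-Blackfan anemia, a failure of red cell production. Enhanced crosslinking and immunoprecipitation (eCLIP) crosslinks RNA to protein with ultraviolet light, recovers the protein and sequences the RNA bound to it. A size-matched input, RNA of the same size range taken without precipitation, gives the background. A protein of the ribosome can be recovered with any mRNA that a ribosome or its small subunit is on.

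The series has 11 samples from HEK293T, a human embryonic kidney cell line that carries the SV40 large T antigen. Cells were transfected with plasmids for V5-tagged RPS19, either WT (3 samples), R62W (3 samples) or R101H (2 samples), and the 3 inputs came from untransfected cells. The precipitated cells therefore overexpressed RPS19 beside the cells' own protein, and the inputs did not. Each group has 1 deposited list of enriched windows of at most 100 bases, made from all of its samples. A window's value is the log2 odds ratio of immunoprecipitate (IP) reads over input, given for the lowest, mean and highest of the samples in which it passed, and q is its adjusted p, under 0.2 in every listed window. All odds ratios and q values come from the authors' deposited tables, and the value of the third R62W sample was worked out from the other numbers. Coding windows of RPS19 itself, which the plasmids also encode, were listed in every group. Their median log2 odds ratio was 5.20 in WT (6 windows), 5.05 in R62W (7 windows) and 4.84 in R101H (7 windows).

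The 6 genes encode unrelated proteins. ADCY1 is an adenylyl cyclase stimulated by calcium and calmodulin, best known in neurons, that makes the second messenger cyclic AMP. ITPR3 is an inositol trisphosphate receptor, the channel that releases calcium from the endoplasmic reticulum. GOLGA4 is a coiled-coil golgin of the trans-Golgi that captures transport vesicles, and MYO9A is an unconventional myosin, a motor that moves on actin filaments. ADGRV1 is a very large adhesion G protein-coupled receptor of hair cells and photoreceptors, mutated in a form of Usher syndrome. KIAA1671 is named for the cDNA project that found it. On GRCh38 the RefSeq gene lengths were 149 kb for ADCY1, 123.6 kb for GOLGA4, 244.7 kb for KIAA1671, 605.6 kb for ADGRV1, 296.3 kb for MYO9A and 75.2 kb for ITPR3.

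ADCY1 had 77 windows in R62W and 93 in R101H. The counts were 38 and 40 for GOLGA4, 37 and 44 for KIAA1671, 32 and 61 for ADGRV1, 32 and 49 for MYO9A, and 31 and 47 for ITPR3. Every one of the 397 windows named its gene alone. Of 606 genes with at least 31 windows in both substitution lists, 23 (3.8%) had none in WT, and the 6 genes are among these 23. The remaining 17 were not part of the choice. Among those most like the 6 genes, ranked by the smaller of their R62W and R101H counts, were NUP98 (38 in R62W and 40 in R101H), MLLT10 (37 and 43), OTUD4 (35 and 44) and INO80 (34 and 41). The minimum of 31 used here equals the R62W count of ITPR3, the smallest count among the 6 genes, so it is not a separate cut-off. Just below it, 9 genes without a WT window had 30 in their shorter list. A window that a list leaves out has no value in it, so no WT level can be given for any of these genes.

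**Figure D1:**
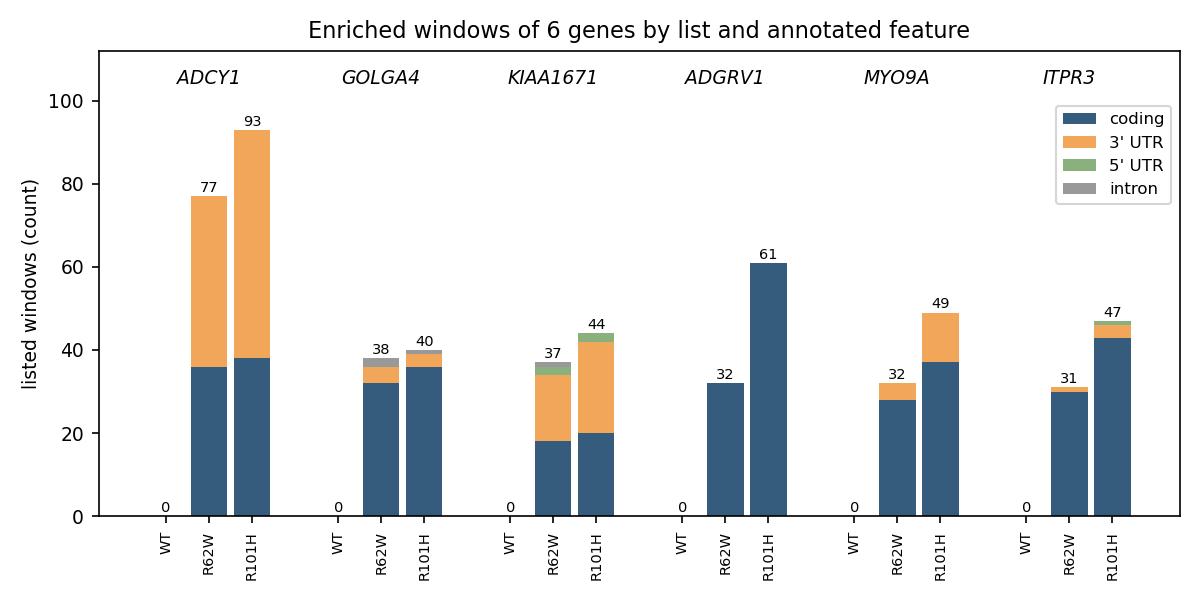
Number of enriched windows (y axis) of each gene in the WT, R62W and R101H lists (x axis), stacked by annotated feature, with the total above each bar. ADCY1 has 77 and 93 windows, more in the 3′ UTR than in coding sequence, while all ADGRV1 windows are coding.

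Most windows of these genes were in coding sequence. The coding share, which here includes start and stop codon windows, was 71.3% of 247 in R62W (exact Clopper-Pearson 95% interval 65.2 to 76.8) and 70.4% of 334 in R101H (65.2 to 75.2). Over the whole lists it was 53.2% and 53.7%. These intervals cover counting error only, and windows of 1 gene are not independent. Taken per gene, the median coding share of the 6 genes was 85.9% in R62W and 82.8% in R101H. For the 17 other genes without a WT window it was 76.5% and 76.3%. For the 583 genes with WT windows and at least 31 in both substitution lists it was 60% and 61.6%. Introns, including the windows annotated as near splice sites, which held 11676 windows of the whole R62W list and 10010 of the R101H list, held 3 windows of these genes in R62W and 1 in R101H. The 3′ UTR share was 26.7% in R62W and 28.4% in R101H, against 23.2% and 26.3% over the whole lists.

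The genes differed in where their windows lay. All 32 ADGRV1 windows in R62W and all 61 in R101H were coding, as were 30 of 31 and 43 of 47 in ITPR3, 32 of 38 and 36 of 40 in GOLGA4, and 28 of 32 and 37 of 49 in MYO9A. ADCY1 and KIAA1671 were the exceptions. In ADCY1, 41 of 77 windows in R62W and 55 of 93 in R101H were in the 3′ UTR, and in KIAA1671 16 of 37 and 22 of 44 were. Windows over a start codon were listed for ADCY1, KIAA1671 and MYO9A in R62W and for GOLGA4 and MYO9A in R101H.

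ADCY1 (ENSG00000164742.16, chromosome 7, plus strand) had its first window at the start codon (45574544 to 45574643, R62W alone). Its last was at the far end of the 3′ UTR (45722720 to 45722818, R101H alone). The 3′ UTR windows formed 1 annotated segment of 89 consecutive windows up to the last one listed, spanning 8823 bases from 45713996. Of these 89, 41 (46.1%) were listed in R62W and 55 (61.8%) in R101H. Listed windows were dense over the first 40, with 25 of windows 1 to 30 in R62W and 28 in R101H, and 8 and 10 of windows 31 to 40. Of windows 41 to 60, 5 (25%) were listed in R62W and 6 (30%) in R101H, and of windows 61 to 89, 3 (10.3%) and 11 (37.9%). The longest unbroken run of adjoining windows in R101H had 20 windows over 1921 bases (45713760 to 45715680), of which 3, the stop codon window among them, were coding and 17 were 3′ UTR. In R62W it had 12 windows over 1190 bases of 3′ UTR (45716573 to 45717762).

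**Figure D2:**
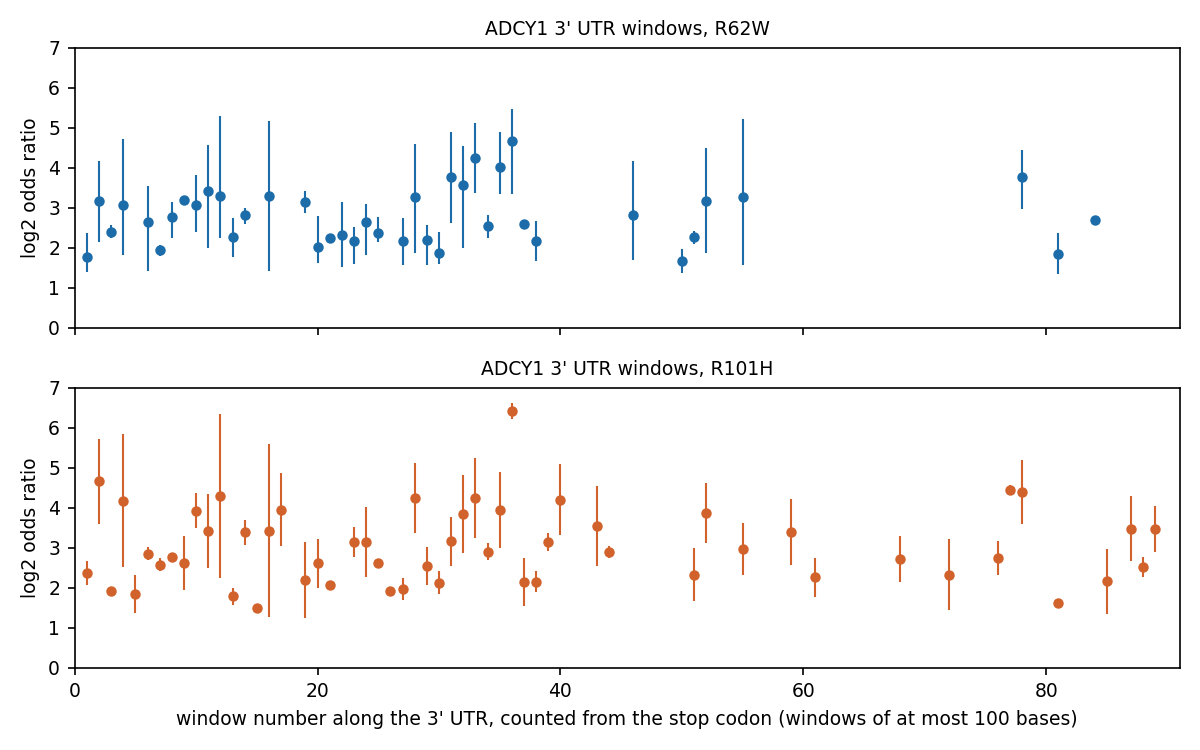
Log2 odds ratio of IP over input (y axis) of each listed ADCY1 3′ UTR window by its number from the stop codon (x axis), for R62W (top) and R101H (bottom); points are means and bars run from the lowest to the highest passing replicate. Window 36 is the highest in both lists, at 4.67 and 6.41, and listed windows thin out after about window 40.

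The enrichment of ADCY1 did not differ much between features. The median of the mean log2 odds ratio was 2.73 over 36 coding windows and 2.69 over 41 3′ UTR windows in R62W, and 2.90 over 38 and 2.89 over 55 in R101H. The highest window of the gene in both lists was in the 3′ UTR (45717465 to 45717564). Its log2 odds ratio was 3.36, 5.17 and 5.48 in the 3 R62W samples, and 6.21 and 6.62 in the 2 R101H samples. Both R101H values lay above all R62W values, but the ratio rests on 2 input reads summed over the 3 R62W samples and 0 over the 2 R101H samples, beside 16.3 and 36.5 IP reads per sample. A coding window (45678166 to 45678263) had the most summed IP reads in R62W and, tied with another coding window, in R101H. Per sample these were 38.7 reads in R62W and 50 in R101H. It had 3.52, 3.98 and 4.95 in R62W and 4.29 and 5.12 in R101H, and these ranges overlap.

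KIAA1671 (ENSG00000197077.14, chromosome 22, plus strand) shared with ADCY1 the large part taken by the 3′ UTR. Its windows fell into separate stretches, with none in the first 25% of the RefSeq gene in either list. Between 25% and 50% of the gene length there were 15 windows in R62W and 18 in R101H, and between 75% and 100% there were 21 and 26. The 3′ UTR (25192406 to 25197349) had 16 of 50 consecutive windows listed in R62W and 22 in R101H, with a median log2 odds ratio of 2.24 in both. Coding windows had medians of 2.22 and 1.98. The highest KIAA1671 window in R101H was the sixth of the 3′ UTR (25192900 to 25192998), where the 2 samples stood far apart at 2.88 and 5.99. In R62W the same window had 1.94, 2.58 and 5.06. The highest window in R62W was intronic (25103844 to 25103943), at 2.98 and 4.74 in the 2 samples that passed, with 26.5 IP and 1.5 input reads per sample, and it was not listed in R101H. The KIAA1671 window with most IP reads in R62W was coding (25040735 to 25040833, 25.3 reads per sample), with 1.99, 3.38 and 3.60 in R62W and 3.40 and 3.60 in R101H.

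ADGRV1 (ENSG00000164199.18, chromosome 5, plus strand) had the largest gap in number between the substitutions among the 6 genes, 32 windows in R62W against 61 in R101H. Its windows were short coding pieces scattered over 52 annotated segments, and the longest run of adjoining windows was 2 in R62W and 3 in R101H. They lay mostly in the first 50% of the RefSeq gene, which held 25 of 32 in R62W and 54 of 61 in R101H. Most of these were between 25% and 50% of the gene length, with 19 in R62W and 43 in R101H. The first 25% held 6 and 11. The larger count in the first 50% was the opposite of the other 5 genes. In those, the first 50% held 1 to 15 windows in R62W and 5 to 18 in R101H, always fewer than the rest. Introns are included in these positions, and exon density along the genes was not measured here. The last ADGRV1 window in R62W was the stop codon window (91163801 to 91163900), with 1.76 and 2.68 in the 2 samples that passed.

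The ADGRV1 window with the highest value in R101H was coding (90863757 to 90863806), with 4.93 and 5.18 and no input read. In R62W it had 3.07 and 4.55 in the 2 samples that passed, both below the R101H values. Its highest window in R62W (90965473 to 90965531) also had no input read, with 4.35 and 4.41 from 8.5 IP reads per sample, and was not listed in R101H. The ADGRV1 window with most IP reads in R101H (90783984 to 90784057, 22 reads per sample) had 3.43 and 5.40 there. It had 2.98 and 5.20 in the 2 R62W samples that passed, so these ranges overlapped.

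MYO9A (ENSG00000066933.16, chromosome 15, minus strand) had more windows in R101H than in R62W in both coding sequence and the 3′ UTR. It had 28 coding and 4 3′ UTR windows in R62W and 37 and 12 in R101H. The lists differed in both directions, with 11 windows in R62W alone, all coding, and 28 in R101H alone, 20 coding and 8 3′ UTR. Of 42 consecutive 3′ UTR windows (71822390 to 71826579), 4 (9.52%) were listed in R62W and 12 (28.6%) in R101H, and the longest run in R101H was 5 adjoining 3′ UTR windows (71825881 to 71826379). The start codon window (72046464 to 72046563) had 1.28, 1.71 and 2.06 in R62W and 2.60 and 2.67 in R101H, which do not overlap. The 3′ UTR window with most IP reads in R62W (71825283 to 71825382, 17.7 reads per sample) had 1.83, 3.15 and 3.45 in R62W and 3.26 and 3.39 in R101H, which overlap. The highest coding window in R101H (71888004 to 71888059) had 3.41 and 5.43 there and 1.70, 3.17 and 4.89 in R62W, and these ranges overlap.

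ITPR3 (ENSG00000096433.11, chromosome 6, plus strand) had windows from the 5′ UTR (33621322 to 33621414, R101H alone) to the 3′ UTR (33696269 to 33696366, R101H alone), spanning 99.7% of the RefSeq gene. They fell in 38 annotated segments, mostly of 1 or 2 windows. The highest window was the same in both lists, a coding window of 63 bases (33688719 to 33688781). It had 3.53 and 5.06 in the 2 R62W samples that passed and 3.89 and 5.40 in R101H, with 1 input read summed over the 2 samples in each list. The ITPR3 window with most IP reads was in the 3′ UTR (33696172 to 33696268), with 20.7 reads per sample in R62W and 42 in R101H. Its log2 odds ratio was 1.48, 1.78 and 3.08 in R62W and 2.41 and 3.09 in R101H.

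GOLGA4 (ENSG00000144674.16, chromosome 3, plus strand) had nearly the same number of windows in both lists but not the same windows. Of its 38 and 40 windows, 23 were shared. Its windows were mostly in coding sequence, with 18 in R62W and 23 in R101H between 50% and 75% of the RefSeq gene. The few 3′ UTR windows had the higher values, with a median of 2.93 over 4 in R62W and 3.65 over 3 in R101H, against coding medians of 2.31 and 2.33. The 3′ UTR window with most IP reads in R101H (37366381 to 37366473, 28 reads per sample) had 3.61 and 3.68 there. It had 3.02 and 3.11 in the 2 R62W samples that passed. The last GOLGA4 window (37366566 to 37366658) had 2.89, 3.08 and 3.29 in R62W and 3.35 and 4.25 in R101H, so the R101H values were the higher ones in both. R101H was higher in only 2 of the 6 GOLGA4 windows enriched in every sample of both groups. Over all genes, both R101H values lay above all R62W values in 19.2% of such windows. The highest window in R62W was intronic, in a stretch annotated as proximal to a 3′ splice site (37251195 to 37251294), with 7.5 IP reads per sample and 1 input read in all, and was not listed in R101H.

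**Figure D3:**
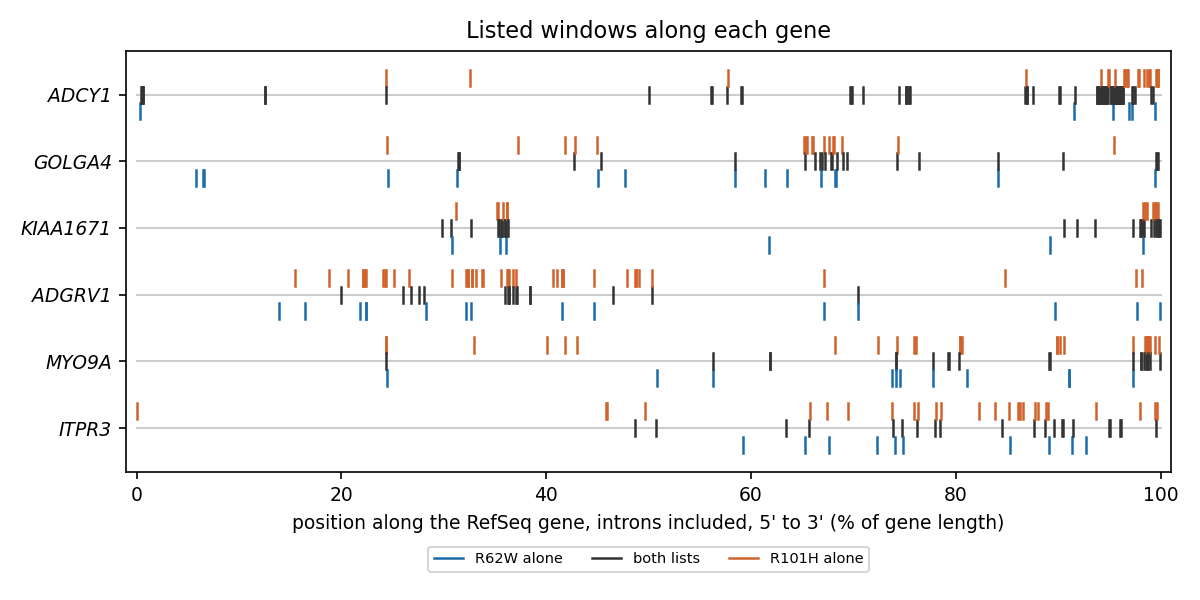
Position of every listed window along each RefSeq gene, introns included, as a percent of gene length from 5′ to 3′ (x axis), one row per gene, with ticks for windows listed in both substitutions, in R62W alone or in R101H alone. ADGRV1 windows lie mostly in the first 50% of the gene, and those of the other 5 genes mostly in the rest.

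ADCY1 windows passed in more of the R62W samples than those of the other 5 genes. Of its 77 windows, 52 (67.5%) passed in all 3 R62W samples, against 44.5% of the whole R62W list. For the others the share was 40.5% in KIAA1671, 26.3% in GOLGA4, 25.8% in ITPR3, 25% in MYO9A and 18.8% in ADGRV1. Every R101H window passed in both samples, as the whole R101H list did.

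Over all their listed windows, the 6 genes combined low input counts with log2 odds ratios above the list medians. The median log2 odds ratio was 2.44 in R62W and 2.56 in R101H, against 1.90 and 2.00 over the whole lists. In their windows with at least 10 pooled input reads the median was lower, at 1.98 over 43 in R62W and 1.85 over 35 in R101H. List medians under that filter are not given here, so the higher level is described only for windows with few input reads included. By gene the medians in R62W ran from 2.22 in MYO9A to 2.72 in ADCY1, and in R101H from 2.15 in KIAA1671 to 2.89 in ADCY1. The spread within a gene was wider than between them, with the middle 50% of ADCY1 windows from 2.33 to 3.27 in R62W and from 2.37 to 3.87 in R101H, and those of KIAA1671 from 1.94 to 2.65 and from 1.84 to 2.65. Among the 606 genes with as many windows, ADCY1 ranked 24 from the highest by its R62W median and 28 by its R101H median, and KIAA1671 ranked 89 and 219. These values come from windows that passed the threshold by which the genes were chosen, so their position against the list is a description.

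**Figure D4:**
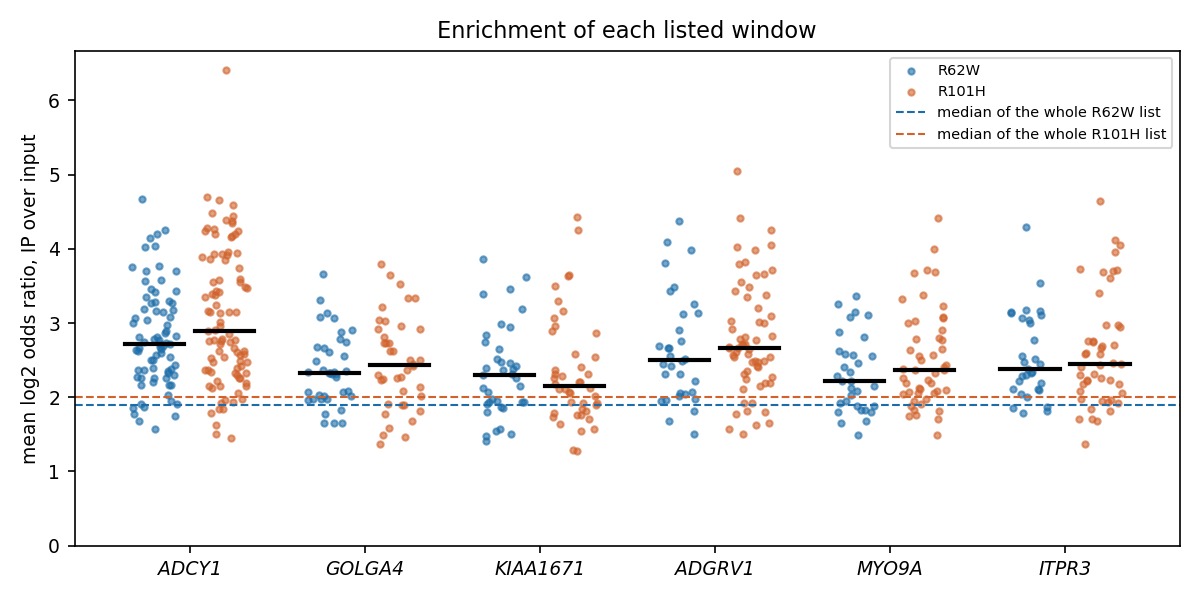
Mean log2 odds ratio of IP over input (y axis) of each listed window (points) by gene and substitution (x axis), with black bars at the median of each gene and dashed lines at the medians of the whole lists, 1.90 in R62W and 2.00 in R101H. The black bars run from 2.15 to 2.89 and all lie above the dashed lines, and ADCY1 has the highest single window, at 6.41.

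Reads behind these values were few. Per passing replicate, the median window of the 6 genes had 13.5 IP reads in R62W and 16 in R101H, against 19.3 and 24 over the whole lists. The input medians were 2.33 and 2.5 reads per passing replicate, against 5 and 5.5. ADCY1 had most IP reads, with medians of 19 and 25, and GOLGA4 had 10.8 and 11. Pooled input was 0 in 1 window of the 6 genes in R62W and 5 in R101H. Across genes with at least 31 windows in both lists, the 17 other genes without a WT window had a median input of 4.75 reads per passing replicate in R62W, and the 583 genes with WT windows had 6.17, while the 6 genes had 2.25.

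Whether a window shared by both substitutions was also in the WT list went with its IP count over the whole series. Of 59874 shared windows, 10627 (17.7%) were in the WT list. The share was 3.89% at up to 10 R62W IP reads per passing replicate, 9.82% between 10 and 20, 17.9% between 20 and 40, 30.3% between 40 and 80, and 48.6% above 80. The 184 shared windows of the 6 genes all lay at up to 40 reads, with 24, 123 and 37 in the 3 lowest classes. The part of read depth in their absence from the WT list was not tested.

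Windows shared by the substitutions made up 74.5% of the 247 in R62W (95% interval 68.6 to 79.8) and 55.1% of the 334 in R101H (49.6 to 60.5), at identical coordinates. These intervals treat windows as independent, which windows of 1 gene are not, and 71 of the 184 shared windows were in ADCY1. Over the whole lists these shares were 69.2% of R62W and 64.2% of R101H. The series has 3 inputs for all groups, so the lists share input reads. The part of this in the overlap was not tested. ADCY1 shared 71 windows (92.2% of R62W, 76.3% of R101H) and KIAA1671 31 (83.8% and 70.5%). ITPR3 and MYO9A shared 21 each (67.7% and 44.7%, and 65.6% and 42.9%), GOLGA4 23 (60.5% and 57.5%) and ADGRV1 17 (53.1% and 27.9%). The order of the genes thus followed their passing rate in R62W at its ends, with ADCY1 and KIAA1671 first and ADGRV1 last. Windows listed in R101H alone numbered 150, of which 113 were coding and 35 were 3′ UTR, 18 of them in ADCY1. In ADGRV1 all 44 were coding. The 63 listed in R62W alone had a median highest q of 0.134, where the list ends at 0.2, against 0.087 for the shared windows in R62W. For the 150 listed in R101H alone it was 0.093, against 0.037 for the shared windows in R101H.

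The level of enrichment was compared between R101H and R62W, a contrast that the choice of genes did not use. Both groups drew on the 3 inputs of the series, in a pairing that is not given, so their values are not fully independent. The fit was limited to windows enriched in every sample of both groups, and limma with Benjamini-Hochberg adjustment over all 34309 such windows called 0 (0%) at an adjusted p of 0.05. Of these windows, 852 had an unadjusted p under 0.05. Among the 88 windows of the 6 genes that entered the fit, limma called 0, with a lowest adjusted p of 0.94, and 3 had an unadjusted p under 0.05. The 3 were the ADCY1 3′ UTR window at 45717465 (R101H minus R62W 1.75, SE 0.66), the MYO9A start codon window (0.95, SE 0.36) and a GOLGA4 coding window at 37315509 to 37315598 (1.25, SE 0.41), all higher in R101H. That GOLGA4 window had 1.54, 2.14 and 2.58 in R62W and 3.20 and 3.47 in R101H. The median SE of the difference over the 88 windows was 0.54, larger than their median difference.

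The median R101H minus R62W difference over the 88 windows was 0.27, with R101H higher in 61 (69.3%), and over all 34309 windows it was 0.30, with R101H higher in 80.8%. By gene the median was 0.34 over 51 windows in ADCY1, 0.49 over 7 in MYO9A and 0.66 over 4 in ADGRV1, and -0.10 over 6 in GOLGA4, -0.03 over 14 in KIAA1671 and -0.0045 over 6 in ITPR3. R101H was higher in 40 of 51 ADCY1 windows, 6 of 7 in MYO9A and 3 of 4 in ADGRV1. Both R101H values lay above all 3 R62W values in 9 of the 88 windows (10.2%), where 19.2% of all windows fitted did, and both lay below in 1 of 88, where 1.03% did. Over all 184 shared windows, in which up to 1 R62W sample is left out, the median difference was 0.17 and R101H was higher in 121.

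**Figure D5:**
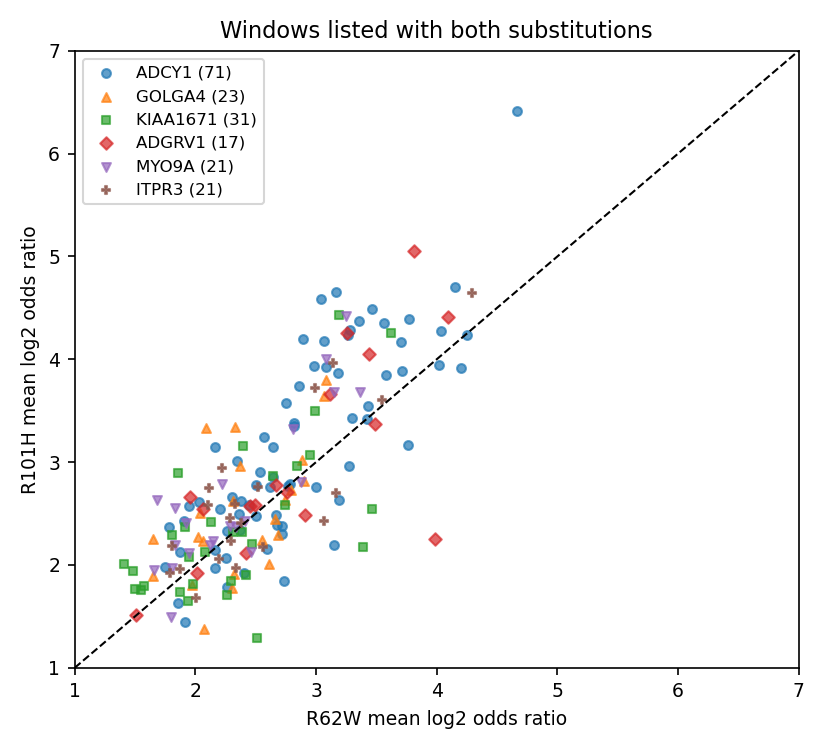
Mean log2 odds ratio in R101H (y axis) against R62W (x axis) for the 184 windows of the 6 genes listed with both substitutions, with a symbol per gene, the number of windows in the legend and a dashed line of equal values. In 121 windows the R101H value lies above the line, and the ADCY1 3′ UTR window at 4.67 and 6.41 stands apart.

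Genes of the same families gave a mixed picture. Of 83 genes in the families of adenylyl cyclases, golgins, adhesion receptors, unconventional myosins and intracellular calcium release channels, 15 had a window in WT, 30 in R62W and 32 in R101H. These counts include ADCY1, GOLGA4, ADGRV1, MYO9A and ITPR3, which were chosen for having windows with both substitutions and none in WT. The family counts therefore carry no test. Among 20052 RefSeq protein-coding symbols the shares with a window were 15% in WT, 35.2% in R62W and 37.1% in R101H. The symbol of 1 of the 83 had no RefSeq protein-coding match.

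Of the 10 adenylyl cyclase genes, 4 were listed anywhere, and ADCY1 was the one without a WT window. ADCY3 had 1 WT window beside 39 with R62W and 40 with R101H, ADCY6 had 8, 42 and 42, and ADCY9 had 6, 32 and 29. Among the 11 golgins, GOLGA3 had 2, 36 and 42 windows, and GOLGB1, which encodes giantin, had 1, 30 and 23. GCC2, which encodes another golgin of the trans-Golgi, had 8 and 5 with the substitutions and none in WT. Of the 32 adhesion receptor genes 5 were listed in each substitution. ADGRL1, a latrophilin, had 54 WT windows beside 160 with R62W and 156 with R101H, CELSR1, a receptor of planar cell polarity, had 3, 70 and 69, and ADGRV1 and ADGRA3 had none in WT.

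Of the 24 unconventional myosin genes, 4 had a WT window and 11 were listed in each substitution. MYO9B, the closest relative of MYO9A, had 2 WT windows beside 37 with R62W and 49 with R101H, against 0, 32 and 49 for MYO9A. MYO18A had 24 and 30 windows with the substitutions and none in WT. Among the 6 calcium release channel genes, ITPR1 had 1, 5 and 19 windows and ITPR2 had 0, 2 and 2. No ryanodine receptor gene was listed in any group.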

How the data were processed

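eCLIP libraries of V5-tagged RPS19 and size-matched inputs from HEK293T cells were processed by the authors, who used fastp, STAR and GRCh38, per the submitters' processing notes. Tool versions, the window caller and the pairing of inputs with IPs: not given in the sources used here. Per IP group, the authors deposited 1 window table, made from all replicates. Per the file headers, the deposited counts are whole-number IP and input read counts summed per window. The deposited log2 values give the odds ratio between IP and input for the lowest, mean and highest replicate. The deposited p-values and q-values belong to the authors' test, and the deposited GC fraction describes each window. Another deposited column gives the number of replicates that passed, which was at least 2 with a highest q under 0.2 in every listed window. The counts appear to be summed over passing replicates: in windows shared by R62W and R101H, R101H input was 0.671 times that of R62W where 3 R62W replicates had passed and 1.10 times where 2 had. Read counts were therefore given per passing replicate, except where a sum is named, and windows were ranked by summed IP counts within a list. No library totals are in the tables, so depth per sample is unknown.

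A window belonged to a gene if the gene was one of its names. The lowest, mean and highest values fix each replicate's value without its label, and limma 3.58.1 (R 4.3.3, lmFit and eBayes) compared R101H with R62W over windows enriched in every replicate. It was also run on simulated data, with an outcome that is not given here, so 0 calls is not read as equal levels. Whether samples of a group came from separate cultures is not in the labels, so a p-value reflects a spread that may be technical. Coordinates were written 1-based on GRCh38, and gene spans are those of RefSeq on GRCh38.p14. For each gene, the windows named were taken from those with the highest mean log2 odds ratio or most IP reads per list and the first and last along the gene. Not all windows picked in this way are given. The windows at an unadjusted p under 0.05, chosen after their values were seen, and some of the family genes listed are named too. The genes and lists were chosen with earlier results of these data known. Alternatives varied the q threshold, replicate and input minimums, window naming, overlap, centring and the replicate value used. Repeat tables were not used here, as they name no genes. Among the genes most like the 6, 1 is not reported here.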

Additional observations from a re-analysis of the deposited data

How the results depend on the processing

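The counts of listed windows depended on the filter. With a highest q of at most 0.05, 68 windows of the 6 genes remained in R62W and 152 in R101H, and with at least 10 pooled input reads 43 and 35. Enrichment in every replicate left 99 in R62W. The coding share moved beyond its interval in 1 alternative, to 65.1% in R62W with at least 10 input reads. The share of R62W windows also in R101H was 64.7% at a highest q of at most 0.05 and 88.9% with enrichment in every replicate, and that of R101H windows also in R62W was 28.9% and 26.3%. The limma fit called 0 windows of the 6 genes under each of its 3 alternatives. At an unadjusted limma p under 0.05 there were 5 when all shared windows entered and 0 in the other alternatives. Over all windows the fit called 1 with at least 10 input reads in both lists, an SNX6 window on chromosome 14. That window was lower in R101H and is named because it was the call. After centring on the median of all windows fitted, the median difference over the 6 genes was -0.03. Of 36 alternatives, 11 moved a value by more than the spread of replicates, the interval or 1.5 times, as given here, and the other 25 stayed within it. Some of these 25 could not move, because every window named its gene alone and every R101H window passed in both samples. Low input counts limit all values of these genes. No paired analysis was possible because the columns carry no replicate numbers, and for the same reason no named replicate could be left out.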

Other observations

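The input counts of the 6 genes, like those of the whole tables, differed between lists by the number of passing replicates. In the 88 shared windows that passed in all 3 R62W samples, the R101H input was 0.685 times that of R62W, and identical in 10.2%, against 0.671 times and 2.04% over all 34309 such windows. In the 96 that passed in 2, it was 1.16 times that of R62W, and identical in 46.9%, against 1.10 times and 42% over all 25565. IP counts of R101H were 0.968 times those of R62W in the first set and 1.28 times in the second, so pooled counts of a window do not compare between lists unless the same number of replicates passed.

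GC content differed among the 6 genes. The median window held 57.6% G and C in ADCY1 and 55.2% in ITPR3 in R62W, against 38.9% in GOLGA4 and 42.8% in MYO9A, with 50% over the whole R62W list. KIAA1671 differed within itself, at 55.3% in coding and 40.9% in 3′ UTR windows in R62W.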
